A study of Mus musculus with 4 samples.

Results

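Islet endothelial cells were followed in whole mouse islets through 10 genes, namely *Pecam1*, *Cdh5*, *Kdr*, *Flt1*, *Eng*, *Tek*, *Tie1*, *Esam*, *Plvap* and *Nos3*. They were picked by name as genes known from endothelium and matched by symbol to the table of expression values, where the entry with the highest mean over the libraries stood for a gene. All 10 were found, among 24012 gene symbols. The islets came from male wild type C57bl6 mice, 3 months old, and were pooled. They spent a night at 11 mM glucose and 2 h at 2.8 mM glucose. They were then split between low (2.8 mM) and high (16.8 mM) glucose, with 2 libraries of 100 islets each at either concentration, numbered replicates 1 and 2. Exposure lasted 12 h at both concentrations by the methods of the study, but by the labels 2 h at 2.8 mM and 12 h at 16.8 mM, and this was not resolved. Nothing says that replicates came from separate mice, so p-values measure only the spread between these samples, which may be technical.

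Pancreatic islets are densely vascularized. Their capillaries are fenestrated, and beta cells maintain them by secreting vascular endothelial growth factor A (VEGF-A), which signals through the tyrosine kinase receptors KDR and FLT1 on endothelial cells. A second receptor system, TIE1 and TEK with the angiopoietins as ligands, governs vessel stability, while VE-cadherin (*Cdh5*), PECAM1 and ESAM hold endothelial cells together. Endothelial cells are a minor cell type of the islet and are gradually lost from isolated islets in culture. In whole islets fewer endothelial cells and less RNA per endothelial cell cannot be told apart.

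Values are RPKM, reads scaled to the length of a gene and to the depth of its library. The length that accounts for these values is the genomic span, introns included, so a gene with long introns has a low RPKM even when many reads support it. Depth, recovered from the steps of the values, lay between 50800000 and 60710000 reads per library. The 10 genes together took 9565 and 5776 reads in replicates 1 and 2 at 2.8 mM and 12179 and 7351 reads in replicates 1 and 2 at 16.8 mM, as reconstructed from RPKM, span and depth. The fewest reads behind a single value were 99, for *Nos3* in replicate 2 at 2.8 mM. Islet identity was checked by *Ins1* and *Ins2*, which lay between 3071 and 30018 RPKM in every library. A further 18 endothelial markers summed to 14.5 and 10.3 RPKM at 2.8 mM and to 17.6 and 12.0 RPKM at 16.8 mM, so endothelial transcripts were present in each library.

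*Esam* was the highest of the 10 genes per kilobase of span, with a mean of 1.14 RPKM over the 4 libraries, followed by *Plvap* at 0.832, *Kdr* at 0.726, *Eng* at 0.557, *Cdh5* at 0.419, *Pecam1* at 0.292, *Tie1* at 0.287, *Flt1* at 0.180, *Nos3* at 0.133 and *Tek* at 0.0366 RPKM. By the ranges over the 4 libraries, only the outermost steps of this order were separate. *Esam*, between 0.999 and 1.35 RPKM, did not overlap *Plvap*, between 0.662 and 0.984 RPKM, and *Nos3*, between 0.0969 and 0.187 RPKM, did not overlap *Tek*, between 0.0262 and 0.0505 RPKM. Each of the other neighbours in the order overlapped in range. Compared within each library, neighbours kept this order in all 4 libraries, except *Eng* above *Cdh5* (3 libraries) and *Pecam1* above *Tie1* (2 libraries). The order also depends on the length used. If all reads were placed on exons, the mean would be 6.29 RPKM for *Esam*, 5.87 for *Eng*, 5.79 for *Plvap*, 5.59 for *Kdr*, 5.19 for *Pecam1*, 4.50 for *Cdh5* and 4.30 for *Flt1*, and *Tie1* (1.32), *Tek* (1.09) and *Nos3* (0.63 RPKM) would lie apart at the bottom. The share of reads in introns is not known from the table, so these are upper limits of the exonic level.

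**Figure D1:**
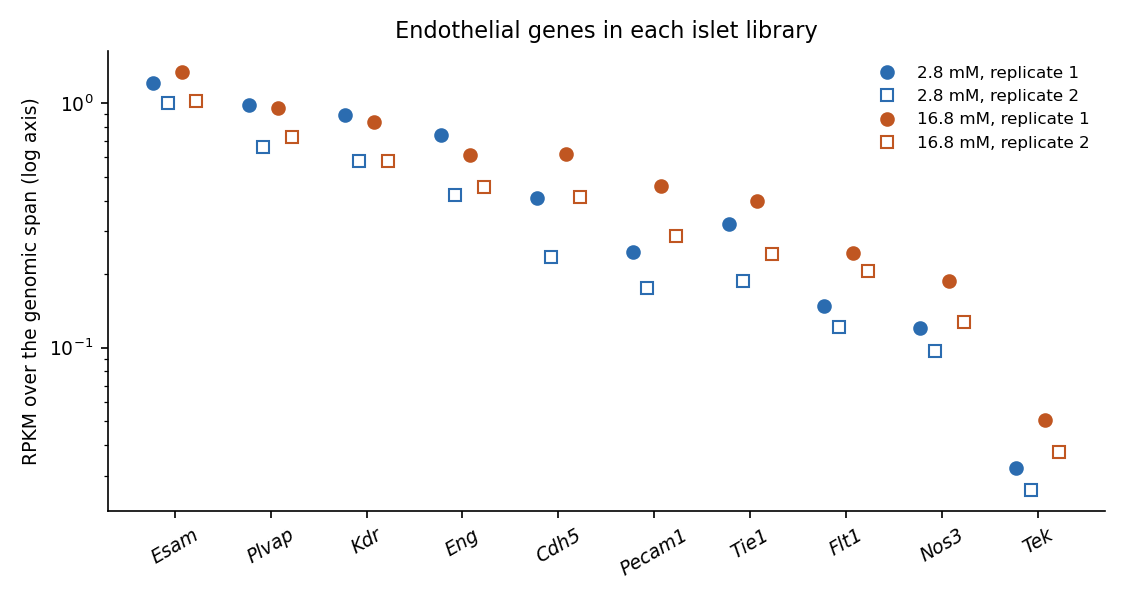
RPKM over the genomic span (log axis) of the 10 endothelial genes in each of the 4 libraries, 2.8 mM in blue and 16.8 mM in orange, replicate 1 as filled circles and replicate 2 as open squares, with genes ordered by mean. In all 10 genes replicate 1 lies above replicate 2 at both concentrations.

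A difference between replicates of the same concentration ran through all 10 genes. Replicate 1 exceeded replicate 2 at both concentrations in all 10 genes, by 1.21-fold to 1.75-fold at 2.8 mM (median 1.44) and by 1.19-fold to 1.64-fold at 16.8 mM (median 1.40). The ratio of the mean at 16.8 mM to the mean at 2.8 mM lay between 0.92 and 1.76 (median 1.35). It exceeded both replicate ratios in *Pecam1*, *Flt1* and *Tek* and not in the other genes. Among all 16234 transcripts tested, 66.5% were higher in replicate 1 at both concentrations, but the median ratio was only 1.07 at 2.8 mM and 1.08 at 16.8 mM. A ratio of at least 1.2 at both concentrations, a limit chosen after the values were seen, was reached by 9 of the 10 genes (8 of the 9 that passed the minimum for the test) and by 4.78% of the transcripts tested. The exception was *Flt1*, at 1.21 and 1.19.

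Markers of other cell types in the same libraries differed between replicates as well, in amounts that varied by list. The 18 further endothelial markers had median ratios of replicate 1 to replicate 2 of 1.44 at 2.8 mM and 1.5 at 16.8 mM, and 12 of the 18 reached 1.2 at both. All 10 leukocyte markers were higher in replicate 1 at both concentrations, with median ratios of 1.36 and 1.27, and so were 7 of 8 pericyte and smooth muscle markers, with median ratios of 1.35 and 1.21. The 7 endocrine markers had median ratios of 1.14 and 1.04, and within them, named after their values were seen, *Gcg* was at 1.30 and 1.42 and *Ppy* at 1.32 and 1.38, inside the range of the 10 genes. The 6 fibroblast markers had a median ratio of 2.38 at 2.8 mM and of 0.919 at 16.8 mM. Genes of the exocrine pancreas and its ducts went the other way, at median ratios of 0.369 and 0.525, and none of the 7 was higher in replicate 1 at both concentrations (*Spp1* was at 2.8 mM only). In sum, these 7 exocrine and duct genes reached 56.7 and 122 RPKM at 2.8 mM and 117 and 210 RPKM at 16.8 mM in replicates 1 and 2. The 10 leukocyte markers summed to between 11.5 and 15.5 RPKM at 2.8 mM and between 12.6 and 17.0 RPKM at 16.8 mM. Most of these sums came from *Cd68*, between 6.76 and 9.74 RPKM, and *Lyz2*, between 2.73 and 4.79 RPKM. *Ptprc*, the pan-leukocyte marker CD45, was at most 0.0258 RPKM over its span, on 95 to 176 reconstructed reads per library. *Cd68* had 681 to 1148. The part of any other cell type in the values of the 10 genes was not tested.

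**Figure D2:**
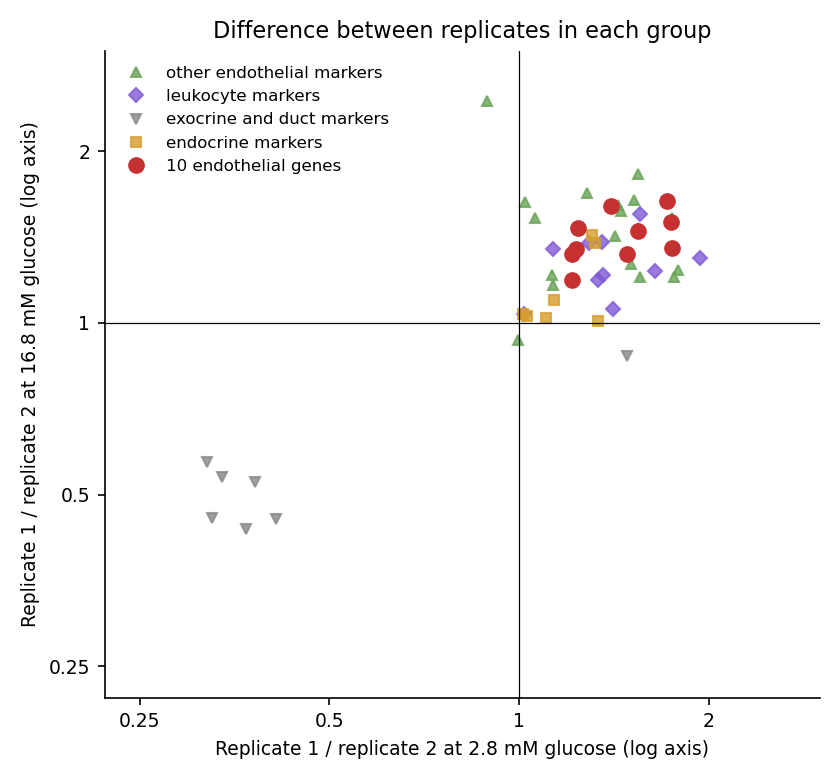
Ratio of replicate 1 to replicate 2 at 2.8 mM glucose (x, log axis) and at 16.8 mM glucose (y, log axis), 1 point per gene, for the 10 endothelial genes (red) and the genes of other marker lists. The 10 genes lie at 1.19 or above on both axes, and 6 of the 7 exocrine and duct genes lie under 1 on both.

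Between 16.8 mM and 2.8 mM glucose, *Flt1* was the only 1 of the 9 genes tested to pass the threshold, and it rose. Of all transcripts tested, 29.8% passed, 8.68% higher and 21.2% lower at 16.8 mM (limma on log2(RPKM + 0.1), adjusted p under 0.05). The 9 genes had a median log2 fold change of 0.25 against -0.13 over all transcripts, and 7 of the 9 fold changes were positive. The share of positive fold changes over all transcripts was not computed. As the genes share a shift between replicates, the 9 signs are not separate observations. Dividing each library by its median moved the median of all transcripts to -0.01 and raised the share that passed to 40.4%, 18.7% higher at 16.8 mM. After quantile normalization it was 41.3%, 17.3% higher at 16.8 mM. *Flt1* remained the only one of the 9 genes called under both scalings. *Tek* lay under the minimum of 0.1 RPKM and was not tested. The groups did not overlap in 5 of the 10 genes (*Pecam1*, *Cdh5*, *Flt1*, *Tek* and *Nos3*), each higher at 16.8 mM, while 71.3% of the transcripts tested did not overlap in either direction and 22.1% did so with higher values at 16.8 mM. The summed RPKM of the 10 genes was 5.11 and 3.51 at 2.8 mM and 5.72 and 4.09 at 16.8 mM, so the sums of the groups overlapped. The log2 ratio of the mean sums, 0.187, lay between -0.075 and 0.484 with each library left out, and it turned negative without replicate 2 at 2.8 mM (-0.060) and without replicate 1 at 16.8 mM (-0.075). Summed as reconstructed reads relative to depth, which does not divide by the span, the log2 ratio was 0.33.

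**Figure D3:**
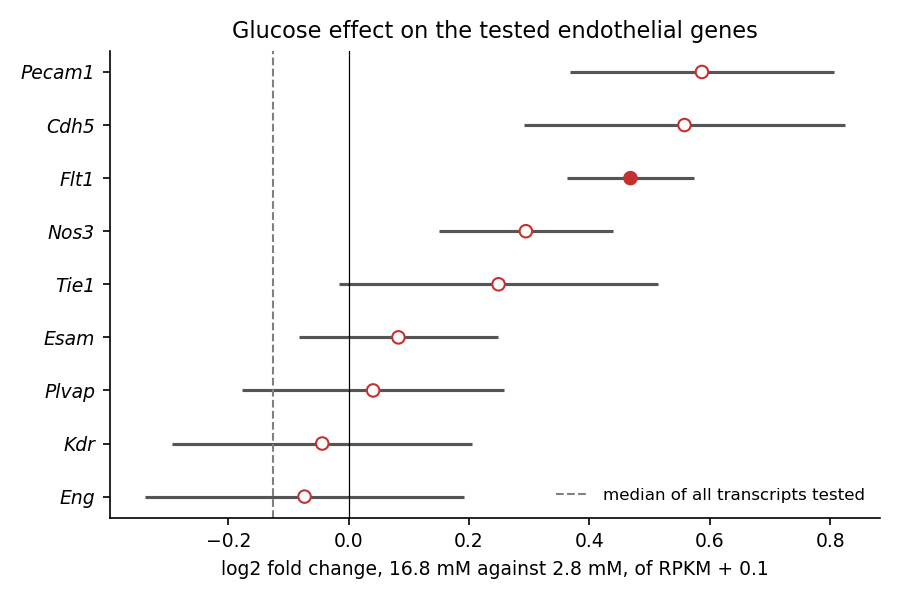
Log2 fold change of RPKM + 0.1 at 16.8 mM against 2.8 mM glucose for the 9 genes tested, with bars of 1 standard error. The filled point, *Flt1*, has an adjusted p under 0.05, and the dashed line is the median of all transcripts tested, at -0.13.

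Of the VEGF receptors, *Flt1* rose and *Kdr* did not pass the test. *Flt1* encodes VEGFR1, which binds VEGF-A tightly, signals weakly and in its soluble form acts as a decoy, and lies on chromosome 5 (minus strand, NCBI build 37, 30 exons) between 148373180 and 148537587. It measured 0.148 and 0.122 RPKM in replicates 1 and 2 at 2.8 mM and 0.245 and 0.206 RPKM at 16.8 mM. Both 16.8 mM libraries lay above both 2.8 mM libraries. The means were 0.135 ± 0.018 (SD, n = 2) and 0.225 ± 0.027 RPKM (SD, n = 2), a ratio of 1.67, and on 1043 to 2442 reads the log2 fold change was 0.47 (standard error, SE, 0.11, limma adjusted p = 0.0367). Without the minimum, where 13.5% of 26272 transcripts passed and 4.50% were higher at 16.8 mM, the adjusted p was 0.0706. With any one of the 4 libraries left out it lay between 0.0684 and 0.113, at log2 fold changes from 0.38 to 0.55. In the fit to reconstructed reads, which adds no RPKM, the log2 fold change was 0.74 (limma voom adjusted p = 0.000102).

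*Kdr* encodes VEGFR2, the main signalling receptor for VEGF-A, and lies on the same chromosome (minus strand, 30 exons) between 76328852 and 76374483. Its values of 0.899 and 0.582 RPKM at 2.8 mM and 0.841 and 0.581 RPKM at 16.8 mM nearly coincided by replicate number. The difference, a log2 fold change of -0.04 (SE 0.25, limma adjusted p = 0.901), was within the spread between replicates. Its direction turned with the scaling, to 0.07 after median centring and 0.08 after quantile normalization. The ratio of *Flt1* to *Kdr* within a library, per kilobase of span, was 0.165 and 0.210 in replicates 1 and 2 at 2.8 mM and 0.291 and 0.355 at 16.8 mM. It was higher in both 16.8 mM libraries than in both 2.8 mM libraries, and its mean was 1.72-fold higher, a difference that was not tested.

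The 250 bases before the RefSeq start of both genes are given because these are the VEGF receptors among the 10 genes. They are read on the strand of the gene in GRCm38, at chr5:75978456-75978705 for *Kdr* and chr5:147726012-147726261 for *Flt1*, with GGAA, the core of the sites of ETS transcription factors, in capitals (TTCC where it is on the other strand).
Kdr: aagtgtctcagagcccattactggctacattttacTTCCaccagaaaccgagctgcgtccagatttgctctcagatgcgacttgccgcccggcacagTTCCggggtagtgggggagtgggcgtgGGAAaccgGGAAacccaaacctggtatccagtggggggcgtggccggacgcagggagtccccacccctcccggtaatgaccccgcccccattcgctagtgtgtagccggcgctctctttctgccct
Flt1: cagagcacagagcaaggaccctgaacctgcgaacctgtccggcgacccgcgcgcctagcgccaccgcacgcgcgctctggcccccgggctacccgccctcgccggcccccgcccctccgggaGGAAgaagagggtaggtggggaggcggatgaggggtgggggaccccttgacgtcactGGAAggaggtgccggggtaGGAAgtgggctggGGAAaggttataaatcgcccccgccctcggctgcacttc
Each holds 4 copies of GGAA on either strand. At least 1 copy is found in 93.4% of 32851 RefSeq promoter windows of the same length, with a median of 3, so this count is near that of promoters at large. TATAAA, the TATA box, occurs in *Flt1* 1 time and not in *Kdr*, and in 12.4% of all windows on either strand. The G and C content was 61.6% for *Kdr* and 70.4% for *Flt1*. ACGTG, a form of the hypoxia response element core RCGTG (R is A or G), was found in neither and occurs in 16.6% of all windows. The other form, GCGTG, is present in both windows shown, in *Flt1* on the other strand. It was not counted over all windows, so neither window is without this core.

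The angiopoietin receptors were among the lower genes per kilobase of span, and neither was called. *Tie1*, the orphan receptor that modulates signalling of its partner TEK, lies on chromosome 4 (minus strand, 23 exons) between 118143796 and 118162666. It measured 0.321 and 0.187 RPKM at 2.8 mM and 0.397 and 0.243 RPKM at 16.8 mM, with overlapping groups and a log2 fold change of 0.25 (SE 0.27, limma adjusted p = 0.503). *Tek*, the angiopoietin receptor TIE2, spans 135.7 kb of chromosome 4 (plus strand, 22 exons) between 94405980 and 94541667, and few reads fell on it, between 185 and 416 per library. Its values were 0.0323 and 0.0262 RPKM at 2.8 mM and 0.0505 and 0.0374 RPKM at 16.8 mM. Both 16.8 mM libraries lay above both 2.8 mM libraries, by a margin of 0.0051 RPKM. The ratio of the means was 1.5, and because the gene lay under the minimum its only tests were alternatives, with an adjusted p of 0.189 in limma without a minimum and 0.0174 in limma voom on reconstructed reads. The ratio of *Tek* to *Tie1* within a library, 0.101 and 0.140 at 2.8 mM and 0.127 and 0.154 at 16.8 mM, overlapped between the groups.

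The 250 bases before the starts of this pair differ more in GGAA, and are shown for that contrast, again in GRCm38 and on the strand of the gene, at chr4:94739039-94739288 for *Tek* and chr4:118489850-118490099 for *Tie1*.
Tek: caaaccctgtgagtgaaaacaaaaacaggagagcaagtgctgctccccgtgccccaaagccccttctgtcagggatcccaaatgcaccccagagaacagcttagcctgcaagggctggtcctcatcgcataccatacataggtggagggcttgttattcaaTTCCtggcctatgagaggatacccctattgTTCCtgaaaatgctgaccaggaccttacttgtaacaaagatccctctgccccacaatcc
Tie1: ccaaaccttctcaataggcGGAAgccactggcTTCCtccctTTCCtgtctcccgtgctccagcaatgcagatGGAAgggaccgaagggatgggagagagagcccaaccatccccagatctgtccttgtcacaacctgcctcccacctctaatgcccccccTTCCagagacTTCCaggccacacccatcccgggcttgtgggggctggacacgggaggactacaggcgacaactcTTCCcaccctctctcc
*Tie1* holds 7 copies of GGAA on either strand and *Tek* 2, against the median of 3. The longer form CAGGAA, which contains GGAA, occurs 2 times in *Tek* and 1 time in *Tie1* on either strand, and in 25.7% of all windows. *Eng*, the other member in the promoter table, holds 3 copies of GGAA and none of CAGGAA. *Pecam1*, *Cdh5*, *Esam*, *Plvap* and *Nos3* had no entry.

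Among the junction genes, *Pecam1* and *Cdh5* had larger fold changes than *Esam*, and none of them passed. *Pecam1* encodes the adhesion molecule CD31, which platelets and leukocytes also carry, and lies on chromosome 11 (minus strand, 16 exons) between 106515532 and 106576708. It measured 0.247 and 0.176 RPKM at 2.8 mM and 0.459 and 0.286 RPKM at 16.8 mM. Both 16.8 mM libraries were above both 2.8 mM libraries, and the higher 16.8 mM library stood well apart from the lower one. The means of 0.211 ± 0.050 and 0.372 ± 0.122 RPKM (SD, n = 2 each) gave a log2 fold change of 0.59 (SE 0.22, limma adjusted p = 0.108). In limma voom on reconstructed reads the value was 0.80 (adjusted p = 0.00218).

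*Cdh5* encodes VE-cadherin, the cadherin of endothelial adherens junctions, on chromosome 8 (plus strand, 12 exons) between 106625525 and 106668402. It measured 0.409 and 0.235 RPKM at 2.8 mM and 0.619 and 0.413 RPKM at 16.8 mM. The groups were separated by only 0.0042 RPKM, between replicate 2 at 16.8 mM and replicate 1 at 2.8 mM. The log2 fold change was 0.56 (SE 0.27, limma adjusted p = 0.175), and 0.71 in limma voom on reconstructed reads (adjusted p = 0.00927). In that fit 42.6% of 17508 transcripts passed, 13.7% higher at 16.8 mM, and *Pecam1*, *Cdh5*, *Flt1* and *Tek* were the 4 of the 10 genes that did.

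*Esam*, an adhesion molecule of endothelial tight junctions, lies on chromosome 9 (plus strand, 7 exons) between 37335663 and 37345904. It measured 1.21 and 0.999 RPKM at 2.8 mM and 1.35 and 1.02 RPKM at 16.8 mM, and the groups overlapped with a log2 fold change of 0.08 (SE 0.16, limma adjusted p = 0.720). The ratio of *Cdh5* to *Esam* within a library was 0.337 and 0.235 at 2.8 mM and 0.460 and 0.405 at 16.8 mM, without overlap. This difference was not tested.

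*Plvap*, *Eng* and *Nos3* stand for other endothelial functions. *Plvap* forms the diaphragms of fenestrae and caveolae and lies on chromosome 8 (minus strand, 6 exons) between 74021653 and 74035668. It measured 0.984 and 0.662 RPKM at 2.8 mM and 0.959 and 0.725 RPKM at 16.8 mM, with 1 library of each group high and 1 low and a log2 fold change of 0.04 (SE 0.22, limma adjusted p = 0.896). Its span shares 1830 bases with *Gtpbp3* on the opposite strand, and reads there cannot be assigned, as the use of strand in the counting is not stated.

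*Eng*, the TGF-beta co-receptor endoglin, lies on chromosome 2 (plus strand, 15 exons) between 32502115 and 32538178. It measured 0.738 and 0.422 RPKM at 2.8 mM and 0.614 and 0.454 RPKM at 16.8 mM, and the 16.8 mM libraries lay between the 2.8 mM libraries. The log2 fold change was -0.07 (SE 0.27, limma adjusted p = 0.846), and turned to 0.04 after median centring and 0.05 after quantile normalization. The span meets *Ak1* over 211 bases and *Fpgs* over 50 bases, and it holds a snoRNA and a miRNA gene.

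*Nos3*, the endothelial nitric oxide synthase, lies on chromosome 5 (plus strand, 26 exons) between 23870628 and 23890292. It measured 0.120 and 0.0969 RPKM at 2.8 mM and 0.187 and 0.127 RPKM at 16.8 mM, without overlap by a margin of 0.0071 RPKM. On 99 to 223 reads per library the log2 fold change was 0.29 (SE 0.14, limma adjusted p = 0.185). *Gm15587* is annotated on the opposite strand along 17423 of its 19665 bases, and *Atg9b* along 294, so their reads cannot be told from those of *Nos3* there.

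Set against the geometric mean of all 10 genes in the same library, a scaling chosen after the values were seen, the genes fell on 2 sides. *Pecam1* (by 0.43 on the log2 scale), *Flt1* (0.37), *Cdh5* (0.34), *Tek* (0.21) and *Nos3* (0.15) were higher at 16.8 mM relative to the others, and *Eng* (-0.45), *Kdr* (-0.42), *Plvap* (-0.32) and *Esam* (-0.28) were lower, in each case without overlap of the groups. *Tie1* overlapped, at -0.03. As deposited, the groups did not overlap in 71.3% of all transcripts tested, and no such share was computed for this scaling. These values sum to zero by construction, so that some genes must lie on either side, and they were not tested. As deposited, the log2 ratios of *Kdr*, *Plvap* and *Esam* were -0.05, 0.05 and 0.09. The scaling also removes the shift between replicates that the 10 genes share, so the narrower spread within groups is no support for the split. The ratio of *Pecam1* to *Plvap* within a library went from 0.251 and 0.266 at 2.8 mM to 0.478 and 0.395 at 16.8 mM. It follows from the values of the 2 genes given above and was not tested.

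**Figure D4:**
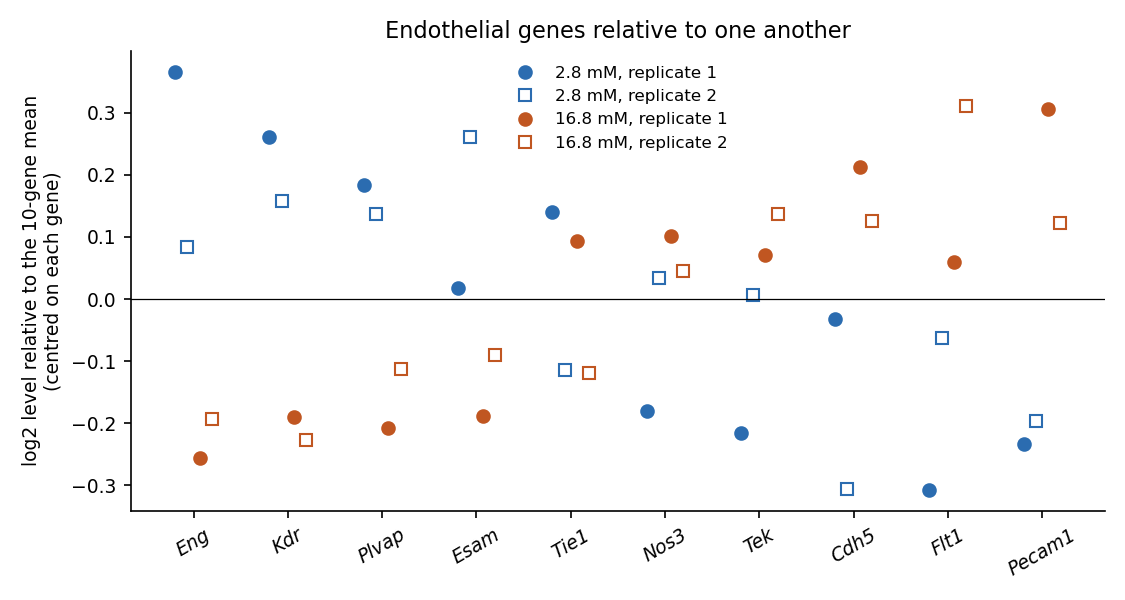
Log2 level of each endothelial gene relative to the mean log2 level of the 10 genes in the same library, centred on each gene, 2.8 mM in blue and 16.8 mM in orange, replicate 1 as filled circles and replicate 2 as open squares. *Eng*, *Kdr*, *Plvap* and *Esam* lie lower and *Nos3*, *Tek*, *Cdh5*, *Flt1* and *Pecam1* higher at 16.8 mM, without overlap.

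Vascular ligands included those of the VEGF and TEK receptors and others that act on vessels, such as Notch ligands and apelin. Of 14 ligand genes 9 were tested, and 2 rose and 1 fell, beside 29.8% of all transcripts called. In limma voom 7 of 11 passed, 5 higher and 2 lower at 16.8 mM, beside 42.6% of all transcripts. *Vegfa*, the VEGF of the beta cell, was far above every other ligand at 27.8 and 29.9 RPKM at 2.8 mM and 31.8 and 27.4 RPKM at 16.8 mM, and the groups overlapped (log2 fold change 0.03, standard error 0.12, limma adjusted p = 0.857). *Pgf* encodes placental growth factor, which binds FLT1 and not KDR. It rose from 0.404 and 0.353 RPKM to 0.932 and 0.745 RPKM, a log2 fold change of 0.97 (SE 0.13, limma adjusted p = 0.0128). *Vegfb*, the other ligand that binds FLT1 and not KDR, fell from 4.83 and 4.64 RPKM to 3.00 and 2.62 RPKM, a log2 fold change of -0.74 (SE 0.10, limma adjusted p = 0.0148). Without replicate 2 at 2.8 mM or replicate 1 at 16.8 mM the adjusted p of *Pgf* was 0.0515 and 0.0503, and with each library left out that of *Vegfb* lay between 0.0527 and 0.078.

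The Notch ligand *Dll4*, named after its values were seen, rose from 0.744 and 0.752 RPKM to 1.24 and 1.04 RPKM (log2 fold change 0.55, limma adjusted p = 0.0241). The call was lost without the minimum (0.0545) and with each library left out (adjusted p from 0.0548 to 0.11). *Apln*, which encodes apelin, measured 0.691 and 0.474 RPKM at 2.8 mM and 1.30 and 0.821 RPKM at 16.8 mM (log2 fold change 0.75, limma adjusted p = 0.0926, and 0.003 in limma voom). Of the TEK ligands, *Angpt2*, the context-dependent antagonist, was at 0.434 and 0.278 RPKM at 2.8 mM and 0.572 and 0.403 RPKM at 16.8 mM (log2 fold change 0.37, limma adjusted p = 0.263, and 0.0395 in limma voom), again with replicate 1 above replicate 2. *Angpt1*, the agonist, did not exceed 0.0016 RPKM and was not tested.

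**Figure D5:**
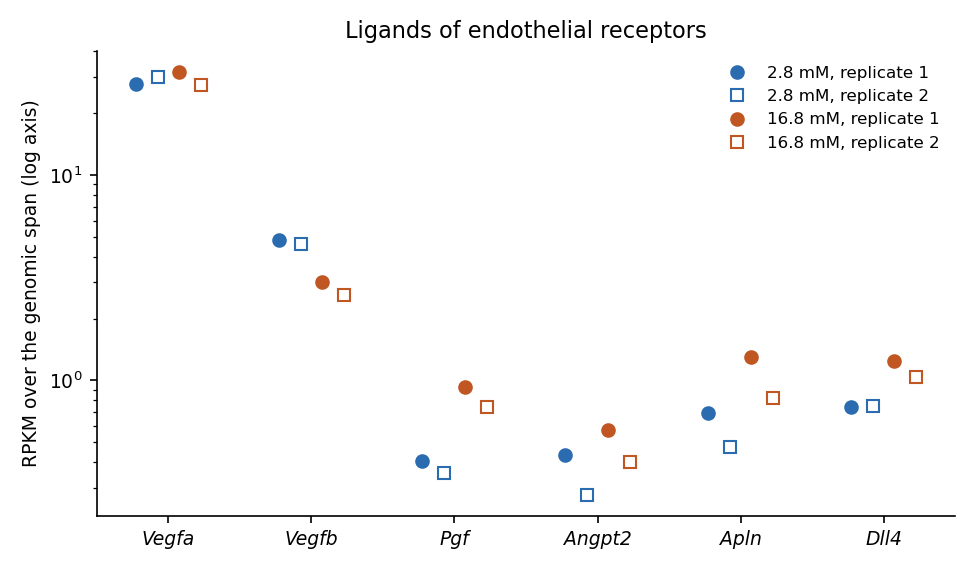
RPKM over the genomic span (log axis) of 6 ligands of endothelial receptors in each library, 2.8 mM in blue and 16.8 mM in orange, replicate 1 as filled circles and replicate 2 as open squares. *Pgf* and *Dll4* rose and *Vegfb* fell without overlap of the groups, and *Vegfa* stayed between 27.4 and 31.8 RPKM. *Apln* was also higher at 16.8 mM without overlap but did not pass in limma. Of all transcripts tested, 71.3% did not overlap.

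Of the 7 tested among 12 co-receptors and receptor partners, 0 passed in limma as described, with 2 at an unadjusted p under 0.05, and 2 of 11 passed in limma voom. Of all transcripts, 29.8% passed in limma and 42.6% in limma voom. The 2 co-receptor and partner genes were *S1pr1* and *Notch4*, and whether they passed depended on the setting. *S1pr1*, the sphingosine 1-phosphate receptor that tightens the endothelial barrier, measured 2.63 and 2.04 RPKM at 2.8 mM and 5.10 and 3.20 RPKM at 16.8 mM (log2 fold change 0.78, limma adjusted p = 0.0847). It passed after quantile normalization (0.0491), after median centring (0.0479), with 0.1 RPKM required in every library (0.0479), at the 1 RPKM minimum (0.0354) and in limma voom (0.00164). *Notch4*, a Notch receptor of endothelium, measured 0.291 and 0.219 RPKM and then 0.466 and 0.355 RPKM (log2 fold change 0.52, limma adjusted p = 0.0678). It passed after quantile normalization (0.03), after median centring (0.0245), with 0.1 RPKM required in every library (0.0364) and in limma voom (0.00342). *Acvrl1*, the BMP9 receptor ALK1 that endoglin assists, gave 0.25 (limma adjusted p = 0.435). *Nrp1*, the VEGF co-receptor neuropilin 1, was under the minimum, between 0.0848 and 0.113 RPKM.

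Of the 13 tested among 14 genes of junctions and of the nitric oxide pathway, 3 rose and 0 fell, beside 29.8% of all transcripts called. In limma voom 7 of 14 passed, 4 higher and 3 lower at 16.8 mM, beside 42.6% of all transcripts. The 3 that rose in limma were *Nostrin*, *Jam2* and *Jup*. *Nostrin* traffics the endothelial nitric oxide synthase (log2 fold change 0.44, limma adjusted p = 0.0301), and *Jam2* encodes a junctional adhesion molecule (0.42, limma adjusted p = 0.0298). *Jup*, the plakoglobin gene, which epithelial and endocrine cells also express, was named after its values were seen (0.39, limma adjusted p = 0.0253). *Nostrin* measured 0.166 and 0.142 RPKM at 2.8 mM and 0.256 and 0.231 RPKM at 16.8 mM. The calls of *Nostrin* and *Jam2* were lost without the minimum (adjusted p = 0.0585 and 0.0513) and with any library left out, between 0.0672 and 0.1 for *Nostrin*. That of *Jup* was lost with any library left out (adjusted p from 0.0916 to 0.129). *Ddah2*, which degrades an inhibitor of nitric oxide synthases, had the largest fold change of this list at 0.62 (limma adjusted p = 0.122, and 0.0354 in limma voom), and *Cav1*, the caveolin that binds the synthase, gave 0.26 (limma adjusted p = 0.413).

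Of the 15 tested among the 18 further endothelial markers 1 passed, and in limma voom 4 of 18, 3 higher and 1 lower at 16.8 mM. Of all transcripts, 29.8% passed in limma and 42.6% in limma voom. *Icam2*, an adhesion molecule of resting endothelium, rose from 0.161 and 0.143 RPKM to 0.516 and 0.442 RPKM, a 3.15-fold difference of the means and a log2 fold change of 1.2 (SE 0.10, limma adjusted p = 0.00658). Its values rest on few reconstructed reads, 48 and 38 at 2.8 mM and 160 and 115 at 16.8 mM. *Rasip1*, which supports the vessel lumen, measured 1.35 and 1.27 RPKM at 2.8 mM and 1.08 and 0.707 RPKM at 16.8 mM (log2 fold change -0.53, limma adjusted p = 0.109, and 0.00785 in limma voom), and *Gpihbp1*, the lipoprotein lipase anchor of capillaries, 1.01 and 0.990 RPKM and then 1.85 and 1.14 RPKM (0.50, limma adjusted p = 0.163). *Ptprb*, the phosphatase VE-PTP that acts on TEK and VE-cadherin, had a mean under the minimum, between 0.072 and 0.111 RPKM. The median log2 fold change of the 15 was 0.24, beside 0.25 for the 9 genes tested here.

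Of the 8 tested among 12 endothelial transcription factors, 2 rose and 0 fell. Of all transcripts tested 29.8% were called, 8.68% higher at 16.8 mM. *Klf2*, the shear stress factor, rose from 0.251 and 0.208 RPKM to 0.407 and 0.387 RPKM (log2 fold change 0.60, limma adjusted p = 0.0173), and *Sox7* from 0.178 and 0.170 RPKM to 0.335 and 0.283 RPKM (0.58, limma adjusted p = 0.0182). Few reconstructed reads lay behind them, 28 to 65 per library for *Klf2* and 62 to 144 for *Sox7*. *Gata2* gave 0.41 (limma adjusted p = 0.0538), and passed after quantile normalization (0.0223), after median centring (0.0161), with 0.5 RPKM added (0.049), with all entries (0.0472) and in limma voom (0.023). In limma voom 3 of 12 factors passed, beside 42.6% of all transcripts. With a library left out, the call of *Sox7* was lost in each case (adjusted p from 0.0548 to 0.0674) and that of *Klf2* in 3 of 4 (up to 0.0812).

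Markers of other cells of the islet were counted beside the 29.8% of all transcripts called in limma and the 42.6% called in limma voom. Of the 4 lymphatic markers 2 were tested, and *Lyve1*, which some macrophages also express, rose from 0.335 and 0.396 RPKM to 0.702 and 0.796 RPKM (log2 fold change 0.87, limma adjusted p = 0.0113, and 0.0513 without replicate 1 at 2.8 mM and 0.0644 without replicate 2 at 16.8 mM), while *Prox1*, which endocrine cells express, gave 0.00 (limma adjusted p = 0.975). *Lyve1* was higher in replicate 2 at both concentrations, unlike the 10 genes. Of 6 leukocyte markers tested 1 rose, *Cd14*, with a log2 fold change of 0.98 (limma adjusted p = 0.00609) on 79 to 196 reconstructed reads per library, while *Laptm5* gave 0.47 (0.0702) and *Aif1* -0.44 (0.217). In limma voom 3 of 10 leukocyte markers passed, all higher at 16.8 mM. *Laptm5* passed there (0.00514), after quantile normalization (0.0306), after median centring (0.0286) and with 0.1 RPKM required in every library (0.0411). Of the 8 pericyte and smooth muscle markers 0 passed in limma as described, with 4 at an unadjusted p under 0.05, and 2 passed in limma voom. *Kcnj8* gave 0.50 (limma adjusted p = 0.0647), *Acta2* -0.30 (0.057) and *Des* 0.28 (0.369). After quantile normalization, after median centring and with 0.1 RPKM required in every library, *Kcnj8* passed (0.0256, 0.0215 and 0.036), and so did *Acta2* (0.0461, 0.0414 and 0.0469). None of the 3 fibroblast markers tested (*Col1a1*, *Col1a2* and *Col3a1*) passed, with 0 at an unadjusted p under 0.05 and 0 in limma voom, and their log2 fold changes lay between -0.11 and 0.16. None of the 7 exocrine and duct genes passed in limma, with 1 at an unadjusted p under 0.05 and 7 in limma voom. *Pnlip*, *Krt19* and *Cela2a* gave 1.32, 1.30 and 1.12 (limma adjusted p = 0.167, 0.159 and 0.197). Of the 7 endocrine markers 4 rose, namely *Ins1*, *Ins2*, *Pcsk2* and, named after its values were seen, *Chga*. Without replicate 2 at 16.8 mM the adjusted p was 0.052 for *Ins1* and 0.108 for *Ins2*, and it was 0.12 for *Ins2* without replicate 1 at 16.8 mM. The call of *Pcsk2* was lost with each library left out (adjusted p from 0.0653 to 0.0862), and so was that of *Chga* (from 0.065 to 0.17). Without the minimum the calls of *Ins1*, *Ins2* and *Chga* were lost (adjusted p = 0.139, 0.71 and 0.13). Quantile normalization also ended the calls of *Ins1* and *Ins2*. The log2 fold change of *Ins1* went from 1.77 to 0.54 (limma adjusted p = 0.345) and that of *Ins2* from 0.75 to 0.00. This scaling gives equal ranks the same value in every library, so the 0.00 of *Ins2* was fixed by its rank among the most abundant transcripts. For *Ins2* it therefore cannot show a change in level, and the value of *Ins1* likewise depends on its rank alone.

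Of 6775 genes outside all lists whose mean reached 1 RPKM, the 3 closest to the median profile of the 10 genes over the 4 libraries were *Id2*, *Gpx3* and *1600002K03Rik*, at Euclidean distances of 0.0492, 0.0638 and 0.0722 on the log2 scale. *Id2* measured 11.9 and 9.14 RPKM at 2.8 mM and 14.1 and 10.9 RPKM at 16.8 mM. Replicate 1 was above replicate 2 at both concentrations, which follows from picking the gene by its likeness to this profile and is no separate result.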

How the data were processed

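RNA was measured by RNA-seq in 4 libraries of whole islets, 2 at 2.8 mM and 2 at 16.8 mM glucose. The authors deposited 1 table of RPKM values with 33923 entries and 1 column per library. Their processing notes name STAR, bedtools and the mm9 genome (NCBI build 37), with no versions. The 10 genes and the gene lists were chosen with earlier results of these data known.

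Entries of 1 gene with the same values were merged, which left 28047 transcripts. The 16234 whose mean reached 0.1 RPKM were tested as log2(RPKM + 0.1) with limma 3.58.1 in R 4.3.3 (variance trend, empirical Bayes, Benjamini-Hochberg adjustment at 0.05). The added 0.1 RPKM understates the changes of low genes. The minimum was set below the 1 RPKM of earlier work because values scaled to the span put long genes under it. Python 3.11.15, pandas 2.3.3, numpy 2.4.6, scipy 1.17.1 and matplotlib 3.10.9 were used elsewhere.

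Depth was recovered from the lncRNA values, of which 100% (113 to 118 per library) were whole reads within 0.1 reads. With GENCODE M1 lengths, 75.4% to 76.6% of low RefSeq values were whole reads by span and 24.5% to 25.9% by exons. Reads were reconstructed for the 87.8% of transcripts with a span. They are estimates.

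On simulated data with 200 changed transcripts among 14378, the test found 95% of those changed 4-fold and 94% of those changed 2-fold. Of its calls 9.6% were false, and with none changed it made 8 calls. A true log2 change of 1 was estimated at a median of 0.93. The simulated libraries had a small spread set in advance and no shift between replicates 1 and 2 such as the 10 genes showed. The changed transcripts were few and well counted. These rates therefore need not hold for the 10 genes.

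Named genes were the 10 genes, the up to 3 genes of each list with the largest fold changes, *Vegfa*, *Angpt1*, *Angpt2*, *Nrp1*, *Acvrl1*, *Cav1*, *Ptprb*, *Ins1* and *Ins2*, and the 3 genes nearest in pattern. Any other name was chosen after its values were seen. Alternatives were no trend, quantile normalization, median centring, other minimums and added values, all entries, the replicate block, voom on reads with a mean of at least 20, and leaving out each library. Promoter windows are from RefSeq (GRCm38.p6).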

Additional observations from a re-analysis of the deposited data

How the results depend on the processing

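The fewest reads were behind *Nos3* (99 to 223 per library), then *Tek* (185 to 416) and *Tie1* (183 to 455), and each group held 2 libraries. Of the 10 genes, 1 was called by the main test and under no variance trend, quantile normalization, median centring, 0.1 RPKM in every library, 0.5 or 0.01 RPKM added and all entries. None was called without a minimum (limma, 1 at an unadjusted p under 0.05) or, with *Esam* alone left to test, at a minimum of 1 RPKM with 0.5 RPKM added (0 at an unadjusted p under 0.05). Voom on reads called 4. With each library left out 0 was called (range 0 to 0, with 1 to 3 at an unadjusted p under 0.05), when the number of calls over all transcripts was 385 to 1498 in place of 4845 and over the lists 3 to 7 in place of 15. Transcripts called were 2628 at the 1 RPKM minimum and 7460 in voom. Genes of the lists called were 24 after quantile normalization, 29 after median centring, 9 at the 1 RPKM minimum and 41 in voom. The labels number the libraries 1 and 2 in each group without saying what a number shares, and same-numbered libraries deviated together with a correlation of 0.13 across 16234 transcripts. With the replicate block 6950 transcripts were called, 4 of the 10 genes (adjusted p = 0.027 for *Pecam1*, 0.022 for *Cdh5* and 0.0458 for *Tie1*, with *Flt1*) and 35 genes of the lists. In voom with the block the counts were 10120, 6 and 59. The cause of these differences was not tested.

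Some fold changes turned in sign, none of them past the threshold. After quantile normalization and median centring these were *Kdr* (0.079 and 0.067), *Eng* (0.046 and 0.037) and *Prox1* (0.108 and 0.107), and after the latter also *Col1a2* (0.001). With a library left out, *Kdr* ranged from -0.319 to 0.231, *Eng* from -0.415 to 0.269, *Tie1* from -0.028 to 0.526, *Esam* from -0.102 to 0.267, *Plvap* from -0.214 to 0.295, *Acvrl1* from -0.045 to 0.542, *Prox1* from -0.046 to 0.040, *Des* from -0.006 to 0.569, *Col1a1* from -0.403 to 0.729, *Col1a2* from -0.533 to 0.314, *Col3a1* from -0.259 to 0.426 and *Vegfa* from -0.076 to 0.139. Relative to the 10 genes, *Tie1* (-0.026), *Esam* (-0.279) and *Plvap* (-0.322) turned. Of the calls over all transcripts 1409 of 4845 were higher at 16.8 mM, against 2811 of 6703 after quantile normalization and 3043 of 6560 after median centring.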
